A study of Mus musculus with 6 samples.

Results

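The Wnt pathway genes followed here are 40 listed mouse genes: 16 Wnt ligands, 12 receptors (10 Frizzled receptors and the co-receptors Lrp5 and Lrp6), 8 transducers of the signal and 4 secreted antagonists. They were chosen by gene symbol, and every RefSeq transcript ID of a listed gene was kept. Of the 40 genes, 36 had an ID among the 23485 IDs counted, with 41 IDs in all. The counts of Fzd6, Lef1, Tcf7l2 and Dkk3 were not analysed here.

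The study asked which transcripts differ between the sexes in the embryonic mouse brain. Whole brains of wild-type C57BL/6 embryos at E15.5 (a stage of embryonic development after the gonads have taken on their sex) were used, and both sexes carried the same genotype and received no treatment. There were 3 female and 3 male samples (female 1 to 3 and male 1 to 3), each the pooled RNA of several embryos sexed by their gonads, so that differences between single embryos are not seen. Libraries of total RNA were sequenced on an Illumina instrument, and the values are read counts per transcript ID.

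Wnt proteins are secreted ligands that bind a Frizzled receptor together with Lrp5 or Lrp6 on the receiving cell. Binding recruits Dvl and Axin to the membrane, the destruction complex of Axin, Apc and the kinase Gsk3 stops degrading β-catenin (Ctnnb1), and β-catenin enters the nucleus to act with the Tcf and Lef factors on target genes, several of which are themselves feedback regulators of the pathway. In the embryonic brain the pathway is known for patterning the dorsal telencephalon and midbrain, for keeping progenitors dividing and for forming the brain's vessels, and in the tissues around the brain it acts in bone, cartilage and skin.

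Axin2 and Dkk1, 2 listed members, and Sp5 are feedback genes known as targets of β-catenin, and the 250 bases before their start sites (RefSeq, GRCm38.p6) are shown because their counts are read below as those of pathway targets. Capitals mark CTTTGAT or CTTTGAA, the letters of a Tcf/Lef binding motif.
Axin2, chr11:108920099-108920348, + strand: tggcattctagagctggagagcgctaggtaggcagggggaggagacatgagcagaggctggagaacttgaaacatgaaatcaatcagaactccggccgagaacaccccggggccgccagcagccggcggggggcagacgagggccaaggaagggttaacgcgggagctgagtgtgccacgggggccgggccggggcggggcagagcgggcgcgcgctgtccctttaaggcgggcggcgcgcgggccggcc
Dkk1, chr19:30549497-30549746, - strand: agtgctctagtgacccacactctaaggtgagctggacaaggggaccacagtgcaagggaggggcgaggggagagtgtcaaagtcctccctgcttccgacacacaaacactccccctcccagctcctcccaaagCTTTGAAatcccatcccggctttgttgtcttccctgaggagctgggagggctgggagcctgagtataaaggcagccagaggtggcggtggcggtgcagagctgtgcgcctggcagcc
Sp5, chr2:70474673-70474922, + strand: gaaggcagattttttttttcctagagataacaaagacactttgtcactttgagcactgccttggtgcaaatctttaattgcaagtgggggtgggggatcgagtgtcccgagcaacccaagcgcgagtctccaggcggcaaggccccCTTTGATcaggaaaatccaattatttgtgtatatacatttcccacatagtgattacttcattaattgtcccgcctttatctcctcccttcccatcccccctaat

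The Sp5 stretch held the motif 104 bases before the start, the Dkk1 stretch held it 117 bases before the start, and the Axin2 stretch held neither spelling. Both spellings were searched on both strands in windows of 300 bases (250 before and 50 after the start), and they do not overlap each other or another motif searched. Of the 40 listed genes, 27 had a window, 5 of them several, with Lef1 and Tcf7l2 among the genes that had one. The motif was in 3 of 35 member windows (8.57%), those of Dkk1, Wnt11 and Wnt5b, against 2842 of all 32851 windows (8.65%). The member windows were rich in CG pairs, with a median of 31 against 7 in all windows, and their median GC content was 70.0% against 52.7%. No window was at hand for Lrp6 or Sfrp1.

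The libraries held 4908565 to 10294443 counts, and 3 counts, the limit that a count of 0 allows, corresponded to 0.291 to 0.611 CPM (counts scaled to a common library size). Male 1 stood apart from the other males: the chi-square per degree of freedom between its counts and theirs was 34.4 and 44.9, against 9.03 to 13.8 for the other pairs within a sex. In edgeR's quasi-likelihood test across 13374 IDs, with Benjamini-Hochberg adjustment, 4 IDs passed an adjusted p of 0.05 (0.0299%): Xist was higher in females, and Ddx3y, Kdm5d and H4c2 were higher in males, so that Xist and the Y-linked pair matched the sex labels.

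The brain label did not describe all the RNA. Marker genes of neurons (summed level 2461 to 2822 CPM in females and 2702 to 3533 CPM in males) and of neural progenitors (2463 to 2792 and 2534 to 2898 CPM) were plainly present. Markers of meninges and fibroblasts, with the collagens Col1a1 and Col3a1, summed to 18977 to 23374.5 CPM in females and 17552 to 25844 CPM in males. Sums over different genes are not scaled for length and do not give the share of a cell type. Markers of skeletal muscle reached 2709 to 3107 and 2263 to 2784 CPM, those of cartilage 812 to 1176 and 533 to 1039.9 CPM, and those of surface epithelium 532 to 612 and 407 to 857 CPM, highest in male 1. The choroid plexus list summed to 571 to 688 CPM in females and 707 to 885 CPM in males, the endothelial list to 617 to 657 and 546 to 628 CPM, the microglial list to 121 to 168 and 145 to 168 CPM, and the thalamic list to 22.4 to 28.6 and 24.6 to 37.0 CPM. At an unadjusted p under 0.05, marker IDs were higher in males in the lists of neurons (2 of 5), progenitors (2 of 5), choroid plexus (1 of 4), endothelium (1 of 4) and surface epithelium (1 of 4), and lower in males in those of cartilage (3 of 6) and skeletal muscle (1 of 4), with 0 of 8, 0 of 3 and 0 of 6 for fibroblasts, microglia and thalamus. Of all IDs 6.68% passed with higher male and 4.82% with lower male values, and with 3 to 8 IDs a list these shares are coarse. None of these marker IDs passed edgeR's adjusted test, and DESeq2, which gave 34 of the 49 an adjusted p, called 1, the cartilage collagen Col9a1, lower in males. With the RUVr factors under which Wnt6 or Lrp6 was called, Col9a1, the neuronal genes Nefl and Tubb3, the progenitor gene Hes5 and the choroid plexus gene Ttr were called as well, and their part in the Wnt gene values was not tested. The defining markers Snap25 (neurons), Otx2 and Kcne2 (choroid plexus), Acan (cartilage) and Krt14 (epithelium) were near 0 in every sample. Each of them has 2 or more RefSeq IDs, a class of genes whose counts were low here, so their values do not show that the cell type was absent. RNA of skeletal muscle and cartilage, cell types that brain tissue does not hold, was thus counted in every sample. Epithelial markers were counted in every sample as well. For each Wnt gene below, a difference in cell numbers of a type and one in RNA per cell cannot be told apart.

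No Wnt pathway gene passed edgeR's adjusted test between the sexes. Of the 41 IDs, 34 (of 32 genes) had 10 or more counts in a sample and were tested, and 0 of these passed the adjusted threshold in edgeR, with adjusted p from 0.341 to 0.968. DESeq2 called 0 members, where it called 107 of all IDs (0.8%). It gave an adjusted p to only 13 of the 34 member IDs and to 5595 of all IDs, leaving out those with low mean counts, so that Wnt4 was the 1 ligand ID it could call and Wnt6 (unadjusted p = 0.0171) had none. At an unadjusted p under 0.05, 4 of the 34 member IDs passed (11.8%) against 11.5% of all IDs, so the members passed about as often as any transcript. Wnt6 and Fzd10 were the pair with higher male values (6.68% of all IDs passed in that direction), and Lrp6 and Sfrp1 the pair with higher female values (4.82%). That split depended on the scaling: 893 IDs had higher male and 644 higher female values with TMM, but 673 and 937 with upper-quartile factors, where the members split 1 and 3. The CPM of the sexes did not overlap for 4 tested members (11.8%) against 17.1% of all IDs. With 1 RUVr factor (a factor of unwanted variation estimated from the residuals) edgeR called 0 members and 0.269% of all IDs. With 2 such factors it called Wnt6, alone among the members, and 3.61% of all IDs, and DESeq2 with 1 factor, the kind of correction the study used, called Lrp6 alone and 2.77% of all IDs. In that last fit 22 of the 34 member IDs and 7670 of all IDs had an adjusted p. Of the IDs with an adjusted p, 4.55% of the members and 4.82% of all were called.

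**Figure D1:**
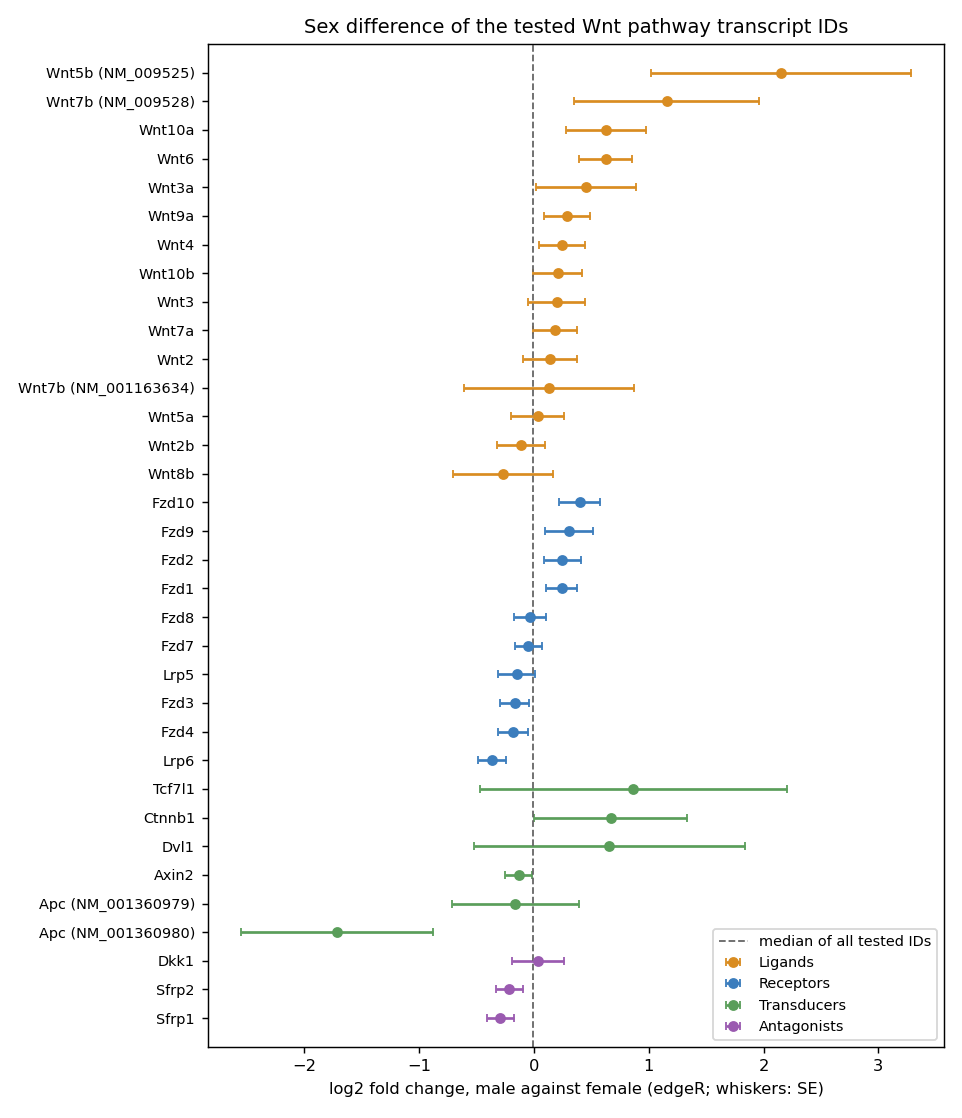
Log2 fold change (male against female, x axis) of the 34 tested Wnt pathway transcript IDs, grouped by role, with whiskers of 1 SE from edgeR and a dashed line at the median of all tested IDs. Of the 15 ligand IDs, 13 lie to the right of 0, receptors lie on both sides, and the widest whiskers belong to IDs with few counts.

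Among the ligands, 13 of 15 tested IDs had higher male values, and the median log2 fold change (male against female, as for every fold change here) was 0.21. Of all IDs 49.0% had higher male values, and their median was -0.01. In edgeR none of the 15 passed the adjusted threshold, and 1, Wnt6, had an unadjusted p under 0.05 (Wnt6 passed with 2 RUVr factors, adjusted p = 0.0458). The ligand median lay between 0.12 and 0.34 when single samples were left out. The lowest value came without male 1, where 11 of 15 ligand IDs were higher in males and Wnt3a went from 0.46 to -0.25. Removing the trends with transcript length and GC content left 13 of 15 and a median of 0.19.

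Wnt6, a ligand known from surface ectoderm and epithelia, had the clearest difference among the ligands (NM_009526; NCBIM37 chromosome 1, 74818466 to 74831893, + strand). It was counted 96, 57 and 205 times in females 1 to 3 and 269, 173 and 207 times in males 1 to 3. These counts were 15.6, 11.4 and 20.9 CPM in females and 27.8, 26.4 and 20.7 CPM in males. Males 1 and 2 lay above every female, and male 3 lay just under female 3. The means were 16.0 ± 4.79 and 25.0 ± 3.78 CPM (SD, n = 3), with a log2 difference of 0.63 (SE 0.23) that gave an adjusted p of 0.363 in edgeR (unadjusted 0.017). It was 0.40 with the length and GC trends removed, 0.44 without female 2 and 0.89 without female 3. Epithelial markers also summed highest in male 1, and the lowest female Wnt6 value, in female 2, went with the highest female epithelial sum. Male 2 had the lowest epithelial sum of all samples and the next highest Wnt6 value after male 1. Their part in the Wnt6 difference was not tested.

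Wnt10a, a ligand of skin, teeth and other ectodermal organs, lies 6196 bases from Wnt6 on the same strand and had a log2 fold change of 0.63 (SE 0.35), with 393 counts in all. Male 1 alone lay above every female, and without it the value was 0.19, while without female 3 it was 0.95. Wnt3a and Wnt9a, neighbours on chromosome 11 with 16175 bases between them on opposite strands, stood at 0.46 (SE 0.44) and 0.29 (SE 0.20) on the log2 scale. Wnt10b, next to Wnt1 on chromosome 15 at 11706 bases, had 0.21 (SE 0.21), and Wnt1, the ligand of the midbrain-hindbrain boundary, had 3 to 8 counts a sample and was not tested. The 5 tested genes of these 3 neighbouring pairs all had higher male values, as had 13 of all 15 tested ligand IDs. None of the 5 passed the adjusted threshold in edgeR without RUVr factors.

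Wnt4, which acts in gonad and kidney development and is also found in neural tube and skin, had the highest level per kilobase of transcript among the ligand genes with 1 RefSeq ID (NM_009523; NCBIM37 chromosome 4, 136833404 to 136855641, + strand). Its CPM was 44.7, 31.8 and 44.9 in females and 62.5, 41.9 and 40.0 in males. Only male 1 lay above the females, and the groups overlapped, with a log2 difference of 0.25 (SE 0.20) that gave an adjusted p of 0.649 in edgeR. It was 0.0077 without male 1 and 0.10 without female 2. The remaining tested ligands with over 100 counts in all had log2 fold changes from -0.27 (Wnt8b, a ligand of the medial telencephalon) to 0.29 (Wnt9a), apart from Wnt3a, Wnt10a and Wnt7b. For Wnt7b, NM_009528 had 0, 2 and 49 counts in females and 53, 31 and 33 in males. The fitted log2 value was 1.16 (SE 0.80), and it was 4.52 without female 3 (adjusted p = 0.0516 in edgeR) and 0.62 without female 1. The other tested Wnt7b ID, NM_001163634, had 6, 3 and 28 counts in females and 27, 2 and 19 in males, with a log2 fold change of 0.13 (SE 0.74).

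Within the ligands the order of levels was graded, with no gene standing apart. The places of Wnt7a and Wnt5a (2 RefSeq IDs each), Wnt5b and Wnt7b (3) and Wnt11 (4) in it are not settled, since genes with several IDs had low counts here. Mean CPM per kilobase over the 6 samples was 10.6 ± 2.42 (SD, n = 6) for Wnt4, 9.90 ± 3.04 for Wnt6 and 6.81 ± 1.02 for Wnt7a, a ligand of the ventricular zone known for its action on brain vessels. Wnt2b, Wnt3, Wnt10b, Wnt9a, Wnt2 and Wnt10a followed between 5.34 and 3.15, and Wnt5a, the prototype of β-catenin-independent signalling, Wnt3a, the ligand of the cortical hem, and Wnt8b lay between 1.70 and 0.971. The 6-sample ranges of neighbours in this order overlapped for all 14 pairs of tested ligand IDs. Per kilobase of coding sequence Wnt4 still led, and the counted Wnt7a ID lay above Wnt6. Wnt9a (13.7) and Wnt5a (10.5) then lay above Wnt10b (9.77), Wnt2 (8.02) and Wnt10a (6.22). Summed over all ligand IDs the level was 54.8, 48.0 and 61.4 CPM per kilobase in females and 78.0, 66.4 and 57.1 in males, overlapping between the sexes. Wnt6 made up 11.5% to 16.5% of this sum in females and 17.3% to 19.3% in males. Its share alone among the 16 ligand genes did not overlap. The CPM of the sexes did not overlap for 17.1% of all IDs.

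**Figure D2:**
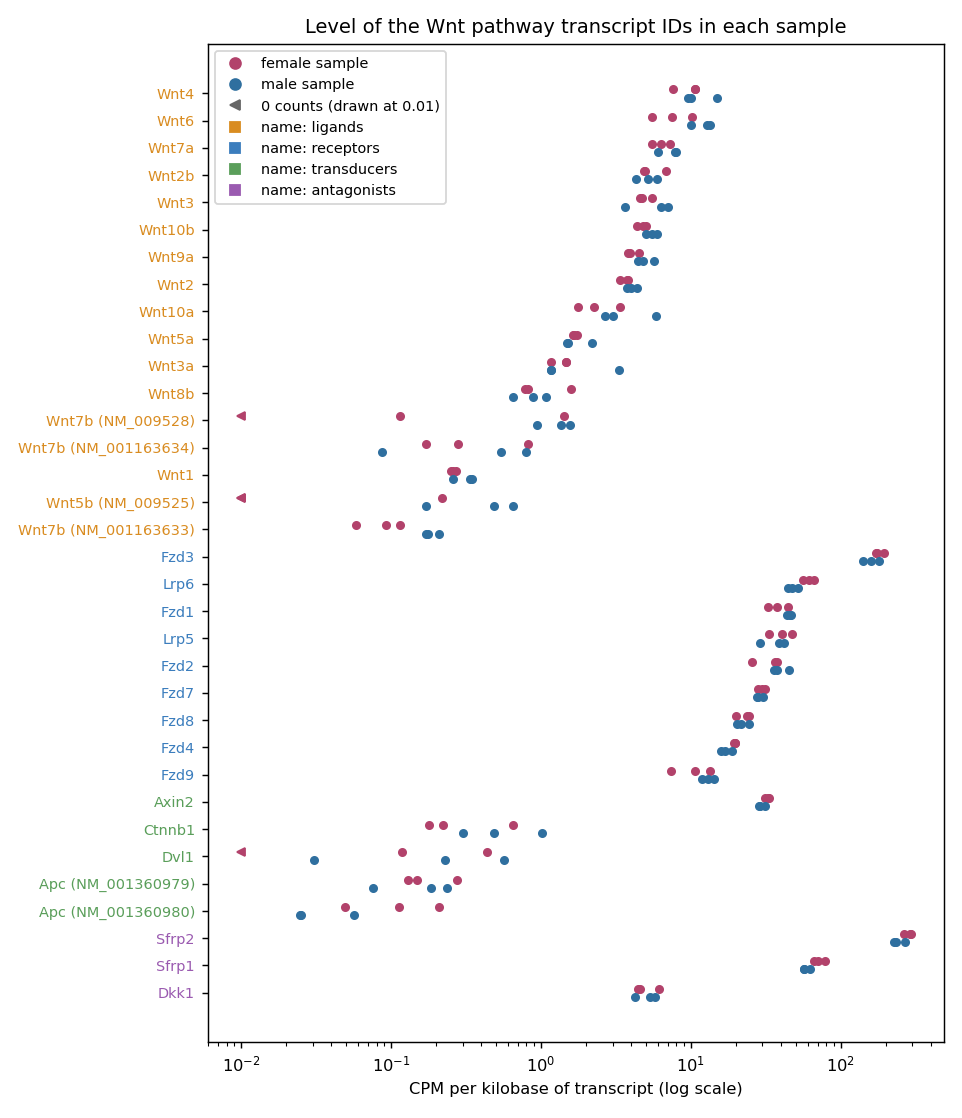
Level of the Wnt pathway transcript IDs with a known length and at least 20 counts in all, in CPM per kilobase on a log axis, 1 point per sample with females drawn above males. Sfrp2 and Fzd3 lie at the right, most ligands between 1 and 15, and the transducers other than Axin2 near or below 1.

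Most receptors had higher levels per kilobase than the ligands, apart from Fzd5 and, in part, Fzd9, and the sex differences of the receptors lay on both sides of 0. Of 10 tested IDs, 4 had higher male and 6 higher female values, and the median log2 fold change was -0.04. None passed the adjusted threshold in edgeR, and 2 had an unadjusted p under 0.05, Lrp6 and Fzd10, in opposite directions.

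Lrp6, the co-receptor that carries the β-catenin signal together with its paralog Lrp5, was lower in each male sample than in any female sample (NM_008514; NCBIM37 chromosome 6, 134396494 to 134516983, - strand). It was counted 3857, 2865 and 5159 times in females and 4266, 2705 and 4816 times in males. These counts were 625, 572 and 527 CPM in females 1 to 3 and 441, 414 and 482 CPM in males 1 to 3. The lowest female, female 3, lay above the highest male, male 3. The means were 575 ± 49.1 and 446 ± 34.4 CPM (SD, n = 3), the male mean being 77.5% of the female mean. The log2 fold change was -0.37 (SE 0.12), with an unadjusted p of 0.0094 and an adjusted p of 0.341 in edgeR, so the difference did not pass. With DESeq2 and 1 RUVr factor it was -0.37 with an adjusted p of 0.0401. Lrp6 is also among the transcripts the study itself named from these samples, so its direction here is not independent evidence.

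The Lrp6 difference became smaller when a trend with transcript length was removed. At 9368 bases Lrp6 has the longest transcript of the members after Apc, and its log2 fold change was -0.16 (unadjusted p = 0.164 in edgeR) when each sample's trend with length was removed, and -0.13 when the GC trend was removed too. Removing both trends also brought Wnt10a from 0.63 to 0.39, Fzd9 from 0.31 to 0.10 and Fzd3 from -0.17 to -0.076, while Sfrp2 moved from -0.21 to -0.33. Across 12622 tested IDs with a length, fold change and length had a Spearman correlation of -0.25, and fold change and GC content one of 0.28. Over 33 member IDs these values were -0.51 and 0.70. They are descriptions across genes, which are not independent replicates and share the 6 libraries. The correlation of a sample's deviation with length was 0.23, 0.12 and 0.13 in females 1 to 3, and -0.27, -0.15 and 0.009 in males 1 to 3. What gave rise to the length trend was not tested. Without single samples the Lrp6 value ran from -0.42 to -0.30, with an unadjusted p of 0.0525 without female 1 and 0.048 without male 2.

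**Figure D3:**
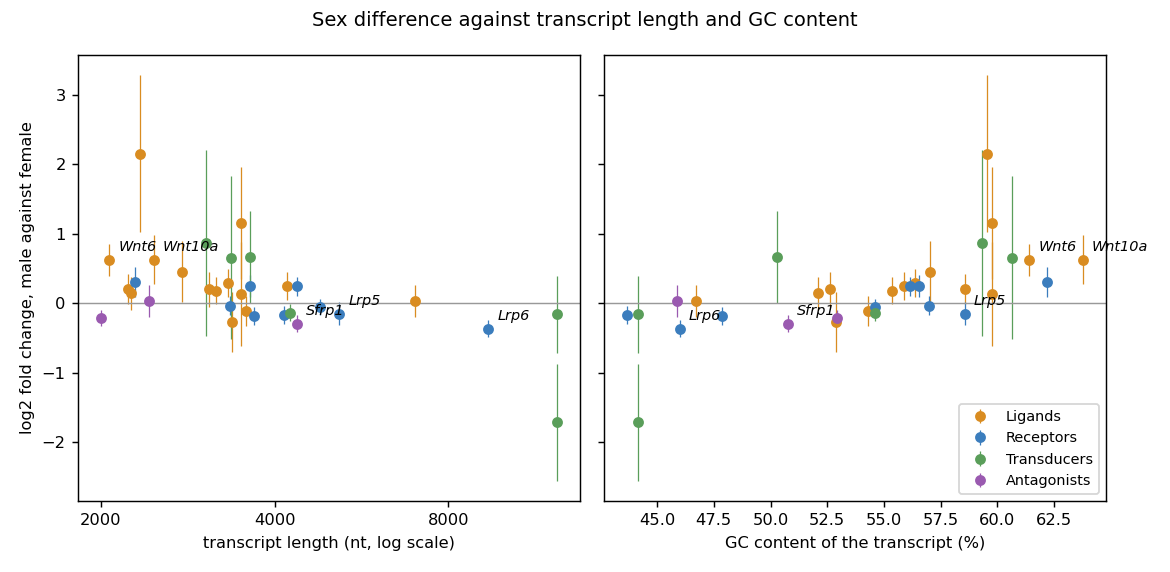
Log2 fold change (male against female, y axis, whiskers 1 SE) of the 33 tested Wnt pathway IDs with a length, against transcript length (log axis, left) and GC content in percent (right). The long Lrp6 and Apc transcripts lie below 0, and the GC-rich Wnt6 and Wnt10a above it.

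Lrp5, best known for its part in bone mass and retinal vessels, had 245, 172 and 210 CPM in females and 215, 149 and 201 CPM in males (NM_008513; NCBIM37 chromosome 19, 3584825 to 3686564, - strand). The sexes overlapped, with a log2 difference of -0.15 (SE 0.16) that gave an adjusted p of 0.748 in edgeR. It was near 0 without female 1 (-0.021) and without male 2. Per kilobase Lrp6 exceeded Lrp5 in every sample, by a ratio of 1.41, 1.83 and 1.39 in females and 1.13, 1.53 and 1.32 in males. The ratio overlapped between the sexes (1.54 ± 0.25 and 1.33 ± 0.20, SD, n = 3), so a change of the co-receptor balance was not resolved. Per kilobase of coding sequence the ratio was larger, 2.51 to 3.32 in females and 2.05 to 2.78 in males. Lrp5 and Lrp6 together came to 94.4 to 114 CPM per kilobase in females and 72.9 to 90.4 in males. These ranges did not overlap, as the CPM of the sexes did not for 17.1% of all IDs.

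Fzd3, a Frizzled receptor needed for the growth of major axon tracts, was the most abundant of the receptors analysed here (NM_021458; NCBIM37 chromosome 14, 65819863 to 65881300, - strand). It had 721, 810 and 713 CPM in females and 586, 751 and 663 CPM in males. Female 2 was highest, male 1 was lowest, and the groups overlapped, with a log2 difference of -0.17 (SE 0.13) that gave an adjusted p of 0.618 in edgeR. It was -0.084 without male 1 and -0.25 without male 2. Fzd3 alone made up 44.7% to 59.6% of the summed Frizzled level per kilobase. The sum left out Fzd6, not analysed here, and Fzd10, whose transcript length was not settled. It held Fzd5, a gene with 2 RefSeq IDs, at only 2 counts.

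Fzd10 (NM_175284), a receptor expressed in the dorsal neural tube, had 55.9, 42.1 and 59.1 CPM in females and 85.8, 61.8 and 60.2 CPM in males. The male samples all lay above the females, males 2 and 3 by little and male 1 by far. The log2 fold change was 0.40 (SE 0.18), with an unadjusted p of 0.0425 and an adjusted p of 0.419 in edgeR. It was 0.21 (unadjusted p = 0.225) without male 1 and 0.26 without female 2, and no length or GC correction could be applied to it. Fzd4, the norrin receptor of vessels, was the reverse, at 70.9 to 72.9 CPM in females and 58.4 to 69.5 CPM in males without overlap, yet with a log2 fold change of only -0.18 (SE 0.13). Of the 4 tested endothelial markers, Cdh5 and Kdr were also lower in every male than in any female, while Cldn5 and Tie1 had higher male values (log2 fold changes of 0.43, unadjusted p = 0.0235 in edgeR, and 0.18). The summed list overlapped, and their part in the Fzd4 values was not tested.

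The remaining Frizzled receptors fell into a graded order. Per kilobase, Fzd3 (170 ± 18.5, SD, n = 6) and Lrp6 (54.5 ± 8.56) did not overlap. Lrp6, Fzd1, Lrp5, Fzd2 and Fzd7, from 54.5 down to 29.2, each overlapped with the next, and Fzd8 (22.4), Fzd4 (18.4) and Fzd9 (11.7) each lay apart from the one above. Per kilobase of coding sequence Fzd3, Lrp6 and Fzd1 still led and Fzd9 was still last, but Fzd7 lay above Fzd2, and Fzd4 above Lrp5 and Fzd8. Fzd1, Fzd2 and Fzd9 had log2 fold changes of 0.24, 0.25 and 0.31 (0.14, 0.086 and 0.11 without female 2, and 0.38, 0.36 and 0.54 without female 3), and Fzd7 and Fzd8 of -0.05 and -0.03. Fzd1 took 9.91% to 13.1% of the Frizzled level in females and 13.3% to 14.8% in males. Its share alone among the Frizzled receptors with a length did not overlap. The summed Frizzled level overlapped (327 to 342 and 315 to 344 CPM per kilobase). Fzd5 had 2 counts in female 2 and 0 elsewhere.

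**Figure D4:**
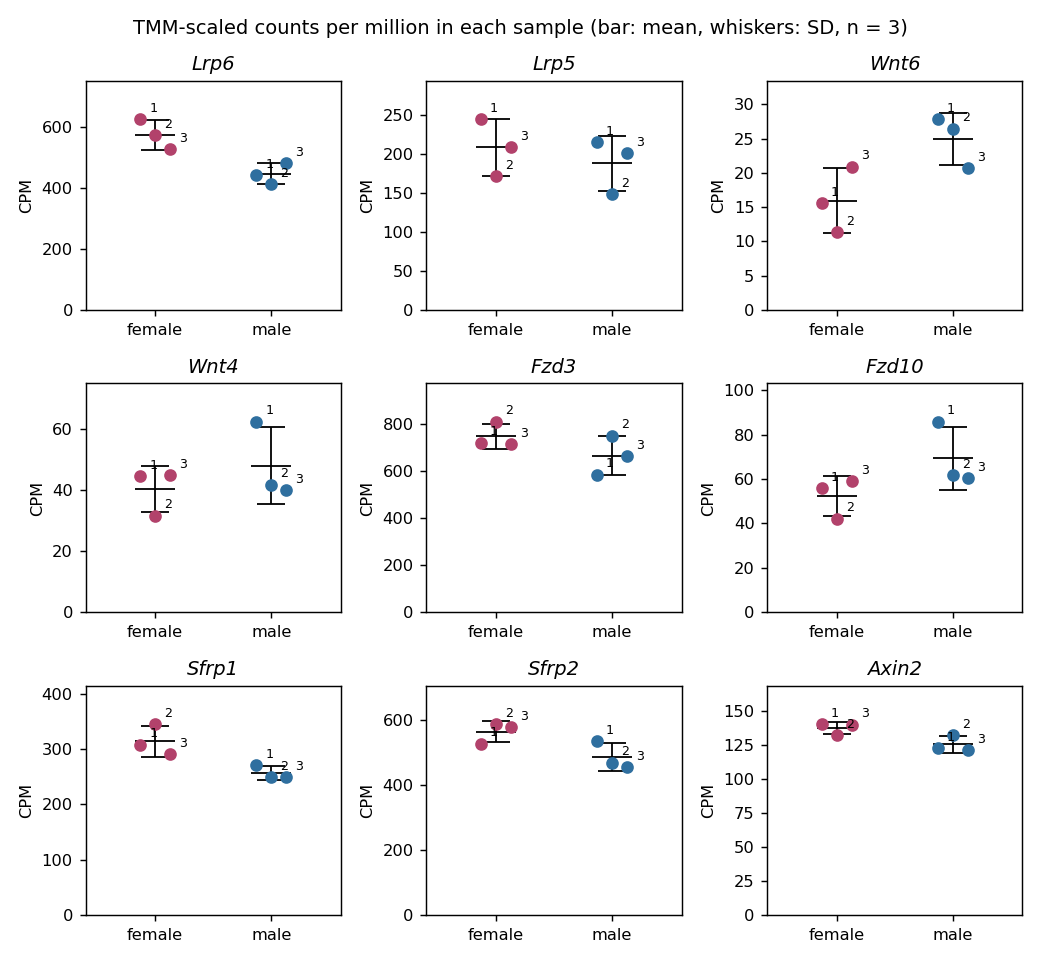
TMM-scaled CPM (y axis from 0) of 9 Wnt pathway genes in each sample, with the sample number beside each point and bars for mean and SD (n = 3). Lrp6, Fzd10 and Sfrp1 separate the sexes, Fzd10 with male 1 far above the rest, and the other genes overlap.

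Of the transducers, Axin2 was the one measured at depth. Axin2, a scaffold of the destruction complex and a widely used readout of β-catenin signalling, had 140, 132 and 140 CPM in females and 123, 133 and 122 CPM in males (NM_015732; NCBIM37 chromosome 11, 108781663 to 108812097, + strand). Male 2 lay just above female 2, and so the groups overlapped. The means were 138 ± 4.66 and 126 ± 6.05 CPM (SD, n = 3), with a log2 difference of -0.13 (SE 0.12) that gave an adjusted p of 0.675 in edgeR. Axin2 varied little among the samples of a sex, and the mean difference between the sexes was still within that test's error.

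The other transducers were counted too rarely to compare. Ctnnb1 (NM_007614; NCBIM37 chromosome 9, 120838334 to 120869625, + strand), the signal carrier itself, had 4, 4 and 23 counts in females and 17, 24 and 11 in males, or 0.648, 0.799 and 2.35 CPM and 1.76, 3.67 and 1.10 CPM. The groups overlapped, and the log2 fold change was 0.67 (SE 0.66), running from 0.11 without male 2 to 1.56 without female 3. The pair of Apc IDs had 100 and 41 counts in all, and stood at -0.16 (SE 0.56) and -1.71 (SE 0.84). Dvl1 (36 counts in all) and Tcf7l1 (17 counts) stood at 0.66 (SE 1.18) and 0.87 (SE 1.34) on the log2 scale, and Axin1, with 8 counts, was not tested. The median over the 6 tested transducer IDs, 0.26, rested on these low counts. When 10 or more counts were required in every sample, Axin2 was the 1 transducer left, at -0.15. The median ran from -0.31 to 0.49 when single samples were left out, and was 0.67 over 5 genes with counts summed per symbol and 0.67 over 7 IDs with no low-count filter.

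The low counts went with the number of RefSeq transcripts a gene has. Genes with an mRNA ID were grouped by their number of RefSeq transcript IDs (GRCm38.p6 annotation). Those with 1 ID had a median of 726.5 counts over all samples, and 34.0% of them had under 100. Genes with 2 such IDs had a median of 31 and 66.3% under 100, and those with 3 or more had 32 and 69.8%. Among the members, 1 of 25 genes with 1 ID had under 100 counts (Wnt1), against 5 of 7 with 2 IDs (Ctnnb1, Axin1, Dvl1, Tcf7l1 and Fzd5) and 2 of 4 with 3 or more (Wnt11 and Wnt5b). Wnt5a and Wnt7a, with 2 IDs each, had 555 and 1029 counts. How reads shared by several transcripts were counted is not given in the sources used here, and the part of the counting in these values was not tested. A low level of Ctnnb1, Apc, Dvl1, Fzd5 or a ligand with several IDs in these counts therefore cannot be read as a low level of the gene. For Wnt5b, NM_009525 had 0, 0 and 5 counts in females and 11, 10 and 4 in males, with a log2 fold change of 2.15 (SE 1.13; 1.68 without female 1 and 5.94 without female 3), the largest and among the least certain of the ligands.

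**Figure D5:**
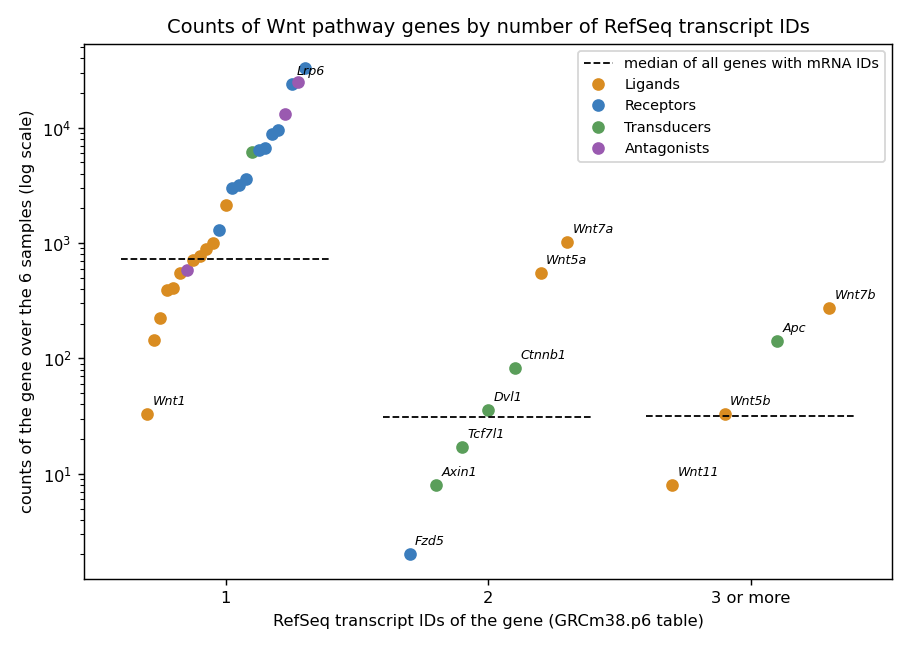
Counts of each Wnt pathway gene over the 6 samples (log axis) by the number of its RefSeq transcript IDs, coloured by role, with dashed lines at the medians of all genes with mRNA IDs. Genes with 1 ID reach 32686 counts, and most members with 2 or more IDs lie under 100.

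The antagonists Sfrp1 and Sfrp2, secreted Frizzled-related proteins that bind Wnt ligands outside the cell, were the most abundant members of their class. Of the 3 tested antagonist IDs, 1 had higher and 2 lower male values, with 0 adjusted calls and 1 unadjusted p under 0.05 in edgeR. Sfrp1, known from cortical progenitors and from many other embryonic tissues, had 308, 345 and 290 CPM in females and 271, 249 and 249 CPM in males (NM_013834; NCBIM37 chromosome 8, 24521974 to 24560104, + strand). The groups did not overlap, and male 1 came nearest to the females. The means were 314 ± 27.9 and 256 ± 13.01 CPM (SD, n = 3), the male mean being 81.6% of the female mean. The log2 fold change was -0.29 (SE 0.12), with an unadjusted p of 0.0275 and an adjusted p of 0.385 in edgeR. With the length and GC trends removed it was -0.25, and without single samples it ran from -0.34 to -0.23, with an unadjusted p up to 0.0982 without female 2.

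Sfrp2 (NM_009144; NCBIM37 chromosome 3, 83570243 to 83578238, + strand) had the highest level per kilobase of all members with a length, 262 ± 27.2 (SD, n = 6), against 65.2 ± 8.51 for Sfrp1 and 5.07 ± 0.77 for Dkk1, the antagonist that binds Lrp5 and Lrp6. Its CPM was 528, 588 and 579 in females and 535, 470 and 455 in males. Males 2 and 3 lay below every female and male 1 among them, with a log2 difference of -0.21 (SE 0.12) that gave an adjusted p of 0.495 in edgeR. With the length trend removed it was -0.32 (unadjusted p = 0.0088), and with the GC trend removed too -0.33 (unadjusted p = 0.0050, adjusted p = 0.466 in edgeR), the smallest unadjusted p of a member in that fit. Dkk1 had a log2 fold change of 0.04 (SE 0.23). Sfrp2 is also known from mesenchyme. The meninges and fibroblast markers summed highest in male 3 (25844 CPM), which had the lowest Sfrp2 level, and lowest in male 2. The cartilage markers summed to 533 CPM in male 1, whose Sfrp2 level lay among the females, to 539 CPM in male 2 and to 1039.9 CPM in male 3. Their part in the Sfrp1 and Sfrp2 values was not tested.

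In the wider pathway, 0 IDs were called by edgeR's adjusted test, and 0 by DESeq2, in each of 5 further lists, and 0, 2, 3, 0 and 2 IDs of 4, 11, 15, 13 and 10 tested had an unadjusted p under 0.05 in the order given here, against 11.5% of all IDs. DESeq2 gave an adjusted p to 1, 7, 8, 5 and 3 of them. Some genes, such as Znrf3 and Lgr5, are in more than 1 of these lists. The counts by direction below stand against 49.0% of all IDs with higher male values. With RUVr factors, Sp5 (edgeR, 2 factors) and Bcl9 (DESeq2, 1 factor) were called. Of the further ligands and secretion genes, 4 IDs were tested and 3 had lower male values. They included the R-spondins, which raise Wnt sensitivity by protecting its receptors: Rspo1 (log2 fold change -0.47, SE 0.23) and Rspo3 (-0.27, SE 0.14), the latter without overlap at 46.5 to 49.1 CPM in females and 37.8 to 41.3 CPM in males. Wnt16 had -0.33 (SE 0.29).

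Of 11 tested IDs of further receptors and their turnover, 9 had lower male values. These IDs had a median transcript length of 4714 bases, against 2867.5 over all tested IDs. Longer transcripts tended to have lower male values here, and the part of length in this list was not tested. Znrf3, a ubiquitin ligase that removes Frizzled and Lrp6 from the membrane, had 21.4, 17.6 and 18.7 CPM in females and 13.2, 13.5 and 10.6 CPM in males (NM_001290501), without overlap, with a log2 difference of -0.63 (SE 0.20) that gave an adjusted p of 0.341 in edgeR. Reck, a membrane partner of Wnt7 signalling in brain vessels, had -0.31 (SE 0.12), and Lgr5, an R-spondin receptor, had -0.45 (SE 0.23). The Lrp6 co-receptor and the enzyme that removes it thus both had lower male values, and both have long transcripts (9368 and 6311 bases). Neither passed the adjusted threshold in edgeR, and Lrp6 alone of the pair passed in DESeq2 with 1 RUVr factor.

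Of 15 tested IDs of further transducers, 9 had lower male values. Their median transcript length was 5304 bases, and the part of length was again not tested. Bcl9, a co-activator of β-catenin, had 241, 208 and 212 CPM in females and 186, 124 and 170 CPM in males, without overlap, with a log2 fold change of -0.46 (SE 0.15). Dvl3 had -0.59 (SE 0.21) and the kinase Gsk3a had 0.39 (SE 0.15), also without overlap, and the adjusted p of the 3 genes in edgeR was 0.341 to 0.374. Of 13 tested further antagonist IDs, 6 had higher and 7 lower male values. Kremen1, a Dkk co-receptor, had 0.31 (SE 0.15), Sfrp4 had -0.45 (SE 0.26) and Frzb, an antagonist of cartilage, had -0.29 (SE 0.17).

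Feedback and target genes gave no common direction. Of 10 tested IDs, 6 had higher and 4 lower male values, with a median log2 fold change of 0.03. Sp5, whose upstream stretch with the motif is shown above, had 6.97, 5.39 and 7.76 CPM in females and 14.1, 10.7 and 11.7 CPM in males. The groups did not overlap, with a log2 fold change of 0.85 (SE 0.25), an unadjusted p of 0.00478 and an adjusted p of 0.341 in edgeR. Axin2 at -0.13 and Dkk1 at 0.04, both in this list, lay nearer to 0, and Znrf3 and Lgr5 lay on the opposite side of 0. Of 12 windows of these genes, 2 held the motif. Without single samples Sp5 ran from 0.72 to 0.98 and Znrf3 from -0.69 to -0.52, with an unadjusted p in edgeR of at most 0.0191 and 0.0395. Of the other genes named from the further lists, Bcl9 was -0.30 without male 2 (unadjusted p = 0.0524), Rspo1 was -0.73 without male 2, Wnt16 was -0.18 without male 3, Kremen1 was 0.49 without female 3, and Lgr5, Sfrp4 and Frzb were -0.73, -0.70 and -0.46 without male 3. At the other end Lgr5 was -0.27 without female 1, Sfrp4 was -0.27 without male 1 and Frzb was -0.18 without male 2.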

How the data were processed

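Total RNA of 3 female and 3 male pools of E15.5 mouse whole brain was sequenced as stranded paired-end TruSeq libraries. Per the study's methods and the submitters' processing notes, the authors trimmed reads with Trimmomatic 0.32, aligned them to mm9 with TopHat2 2.1.1, assembled transcripts with Cufflinks 2.2.1 and counted with featureCounts 1.5.1. The deposited values are raw counts per RefSeq transcript ID, 1 table per sample, with no normalization. The strand setting and the handling of reads shared by several transcripts are not given in the sources used here.

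IDs were given symbols from RefSeq (GRCm38.p6) for 23359 IDs (99.5%), and positions, the longest transcript's length and GC content from GENCODE vM1 (NCBIM37, the assembly of mm9) by symbol for 21317 IDs (90.8%). Fzd10 has more than 1 entry there and got no length. IDs that reached 10 counts in any sample entered the comparison of male against female by the quasi-likelihood F test of edgeR 4.0.16 (R 4.3.3, TMM factors, no covariate) with Benjamini-Hochberg adjustment over 13374 IDs, called at an adjusted p of 0.05. The SE was derived from the fold change and F. CPM is scaled by TMM, and a level per kilobase is CPM over the length. The test was checked on simulated data. Since samples are pools of embryos, p-values measure the spread between pools.

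Alternatives were other scaling factors and count filters, DESeq2 1.42.0, RUVr factors, the replicate number as a block, removal of length and GC trends (loess, span 0.3), counts summed per symbol, and leaving out each sample. The members, the further lists, the marker lists and the naming rule were chosen with earlier results of these data known. Values in every sample are given for Lrp6, Lrp5, members with an unadjusted p under 0.05 and the 2 members of each class with the highest level per kilobase. Fzd4, Wnt7b and Wnt5b were added after their values were seen. Each further list names the 3 genes with the smallest p.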

Additional observations from a re-analysis of the deposited data

How the results depend on the processing

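The number of IDs called, 4 with edgeR and TMM, was 276 with no low-count filter, 1 with 10 or more counts in every sample, 107 with DESeq2, 36 with edgeR and 1 RUVr factor, 483 with 2 of them, and 370 when DESeq2 was given 1 such factor. It ran from 4 to 51 without single samples, with 12 without male 1 and 51 without female 3. The number of members called, 0, was 1 with edgeR and 2 RUVr factors (Wnt6) and 1 with DESeq2 and 1 RUVr factor (Lrp6, -0.37, adjusted p = 0.0401), and 4 at an unadjusted p under 0.05. The transducer median ran from -0.31 to 0.49 without single samples, the lowest without male 3, and was -0.13 with edgeR's filterByExpr, -0.08 with DESeq2 and 1 RUVr factor, and 0.67 with counts summed per symbol. The ligand median stayed above 0 in all alternatives. Upper-quartile factors moved the median of all IDs to -0.06. The replicate numbers do not pair the samples: the correlation of deviations was -0.29, -0.06 and -0.20 for numbers 1 to 3, no sample correlated best with its own number, and with the replicate block 4 IDs and 0 members were called. Levels per kilobase moved beyond their spread for 28 of 33 IDs with the coding length and for 0 IDs otherwise. The causes of these changes were not tested.

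Among 626 alternative fold changes of single members, 26 changed sign, none of them of a called member. With the length trend removed Fzd7 was 0.016, Apc NM_001360979 0.045 and Dkk1 -0.015, and with the GC trend removed too Apc was 0.079. With upper-quartile factors Wnt5a was -0.019 and Dkk1 -0.021, and with DESeq2 and 1 RUVr factor Tcf7l1 was -0.016. Without single samples the log2 fold change ran from -0.22 to 0.067 for Wnt2b, from -0.0047 to 0.45 for Wnt3, from -0.25 to 0.72 for Wnt3a, from -0.15 to 0.13 for Wnt5a, from -0.43 to 1.09 for Wnt7b NM_001163634, from -0.45 to 0.12 for Wnt8b, from -0.094 to 0.0017 for Fzd7, from -0.12 to 0.035 for Fzd8, from -0.52 to 0.23 for Apc NM_001360979, from -0.019 to 2.49 for Dvl1 and from -0.053 to 0.18 for Dkk1.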
